A study of Mus musculus with 40 samples.

Results

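The replication-dependent histone genes supply the H1, H2A, H2B, H3 and H4 proteins that package newly made DNA. Members were all gene symbols of the histone families H1f, H2ac, H2bc, H3c and H4c, in the newer or older (Hist1h) spelling, with a mean of at least 10 counts per library in a table. Of 70 matching symbols, 68 of 55276 listed genes qualified in the genotype table, 67 in the Pramel7 table and 68 in the time course. They comprise 8 H1, 19 H2A, 17 H2B, 12 H3 and 12 H4 genes. H1f7 and H1f8, linker histones of germ cells, missed the minimum in every table, and H2bc21 missed it in the Pramel7 table. The symbol rule also admitted H1f0 and H1f10, linker histones that are expressed outside S phase, so counts without them are given beside several comparisons.

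Total RNA was sequenced in 34 libraries from the mouse embryonic stem cell line E14tg2a, grown with serum and leukaemia inhibitory factor, to ask how loss of the corepressors Ctbp1 and Ctbp2 acts on the 2-cell-like programme. The genotype table holds 2 libraries each of unmodified cells (WT), cells lacking Ctbp1 and Ctbp2 (CtbpDKO), cells lacking Dux (DuxKO), cells lacking Dux and both Ctbp genes (Ctbp_DuxTKO), cells lacking Dppa2 (Dppa2KO) and cells lacking Dppa2 and both Ctbp genes (DKO_Dppa2). The Pramel7 table holds 4 other WT libraries (replicates 3 to 6) and 2 each of DuxKO (replicates 3 and 4), Pramel7 overexpression (P7OE), the same overexpression without Dux (DuxKO_P7OE) and cells lacking Pramel7 (P7KO). CtbpDKO cells were also followed over time, with pairs of libraries from days 0, 3, 9, 12 and 18; their titles carry the word Dox, with no agent or dose explained. The pair called DKO_Dppa2 here has a title and a genotype label naming Dppa2 and Dux, and a description naming the Ctbp double knockout and Dppa2. In its libraries Ctbp1 stood at 0.2 and 0 CPM (the usual count unit scaled to library size), against 64.1 and 68.8 in WT, and the description was followed. Dppa2 was at 21.3 and 19.7 CPM there against 89.9 and 101 in CtbpDKO, and Duxf3 (Dux) had 0 counts in both libraries, as in Dppa2KO, against 40 and 24 in CtbpDKO, so whether Dux was also removed cannot be told from these values. The labels do not say whether libraries came from separate cultures or clones, nor how Pramel7 was expressed, so p-values measure only the spread between these libraries.

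As background, these genes are transcribed mainly in S phase, and their mRNAs end in a stem-loop bound by Slbp in place of a poly(A) tail. Npat drives their transcription at the histone locus body, Hinfp acts there on the H4 genes, and Eri1 trims the stem-loop end. Libraries made from total RNA keep such transcripts, which poly(A) selection would lose. Embryonic stem cells divide fast and spend much of their cycle in S phase.

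RefSeq (GRCm38.p6, the mm10 build) gave 1 entry for 67 of the 68 members, 8 of them through an older name; Hist1h2ap matched more than 1 entry. On chromosome 13 lie 55 members, 54 of them between 21715711 and 23934913. A further 10 lie on chromosome 3 between 96219885 and 96270192, H1f10 lies on chromosome 6 and H1f0 on chromosome 15. RefSeq lists 2 members, H2ac14 and Hist1h2al, as pseudogenes. H2A and H2B genes often stand back to back: 9 such pairs had start sites under 500 bases apart. In the 250 bases before the start, CCAAT (searched on both strands) was present in 48 of 58 members with a promoter sequence, or 82.8%, against 34.5% of all 27025 promoters of this length. It was in 16 of 16 H2A and 15 of 15 H2B promoters but in 3 of 11 H4 promoters. TATAAA was present in 28 of 58 members, or 48.3%, against 13% of all promoters. The octamer ATGCAAAT was present in 12 of 58 members, or 20.7%, against 1.61%, and all 12 were H2A or H2B genes. Each motif was searched by itself on both strands, and matches that share bases with another motif were kept. The 250 bases before back-to-back H2A and H2B genes overlap, so 1 match can count for both genes of a pair. Their counts are therefore not independent. H1f0 and H1f10 are left out of these member counts, and a match describes the letters only.

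Promoter stretches are shown for a pair whose genes diverged in the data, for the H2A gene with the highest mean count and its H2B partner, and for an H1 and an H4 gene named below. All are written 5′ to 3′ on the gene's strand, and capitals mark the 3 motifs on either strand. The first lies at chr13:23934187-23934436 on the plus strand, between H2ac1 and H2bc1, whose starts are 281 bases apart. The second, at chr13:22035644-22035820 on the minus strand, is the whole interval between H2ac12 and H2bc12. The H1f4 stretch is chr13:23622559-23622708 on the minus strand, and the H4c8 stretch is chr13:23530894-23531043 on the plus strand.
H2ac1: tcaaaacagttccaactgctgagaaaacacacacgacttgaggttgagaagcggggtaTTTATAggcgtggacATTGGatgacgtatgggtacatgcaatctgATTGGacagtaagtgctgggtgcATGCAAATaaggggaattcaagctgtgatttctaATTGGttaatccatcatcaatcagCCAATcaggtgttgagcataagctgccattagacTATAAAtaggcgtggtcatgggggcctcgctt
H2ac12: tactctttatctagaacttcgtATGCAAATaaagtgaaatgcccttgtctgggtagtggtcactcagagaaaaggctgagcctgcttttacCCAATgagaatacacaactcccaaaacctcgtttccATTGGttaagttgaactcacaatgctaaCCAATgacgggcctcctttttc
H1f4: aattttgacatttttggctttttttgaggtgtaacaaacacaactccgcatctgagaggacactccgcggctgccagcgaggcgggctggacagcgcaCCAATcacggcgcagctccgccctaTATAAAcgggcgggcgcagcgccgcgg
H4c8: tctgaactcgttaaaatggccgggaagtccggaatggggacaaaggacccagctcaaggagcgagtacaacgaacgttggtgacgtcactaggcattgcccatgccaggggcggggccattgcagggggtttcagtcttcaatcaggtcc
The H2ac1 and H2ac12 stretches both carry the octamer and several CCAAT letters. The H1f4 stretch has 1 CCAAT and 1 TATAAA, and the 150 bases before H4c8 hold none of the 3 motifs.

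Libraries of the genotype table held 19944644 to 36025046 counts, those of the Pramel7 table between 10123058 and 30135341 and those of the time course between 16674526 and 30169626. Embryonic stem cell markers were expressed throughout (Pou5f1 at 524 to 1120 CPM in the genotype table, and at 496 to 972 in the Pramel7 table). Ctbp2 was at 43.6 and 43.8 CPM in CtbpDKO against 211 and 215 in WT, Dppa2 at 33.3 and 29.1 in Dppa2KO against 57.3 and 60.9, and Pramel7 at 14 and 26.2 in P7OE against at most 0.154 in the 4 WT libraries. Duxf3 was nearly silent in WT as well (1 count and 0 in the genotype table), so its level cannot check the Dux knockout in cells with Ctbp; in cells without Ctbp it had 40 and 24 counts in CtbpDKO and 0 and 0 in Ctbp_DuxTKO. Structural RNA genes, such as 7SK and the signal recognition particle RNA, took 9.43% to 28.58% of a library. In the Pramel7 table the share was 21.83% and 16.61% in WT replicates 3 and 4 and 9.43% and 14.88% in replicates 5 and 6. DuxKO had 21.53% and 13.93%, P7OE 15.19% and 16.52%, DuxKO_P7OE 17.72% and 12.9%, and P7KO 9.94% and 13.64%. How far this share goes with the histone share was not tested. In bulk RNA, fewer cells in S phase and less histone RNA per cell cannot be told apart. Many histone genes of a class are near-identical copies, and how reads shared by copies were counted is not given in the sources used here, so values of single copies are uncertain.

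In the genotype table, histone genes took 5.159% and 5.701% of a WT library. The share was 7.006% and 7.019% in DuxKO, and 7.332% and 7.444% in DKO_Dppa2. CtbpDKO (5.238% and 5.546%), Ctbp_DuxTKO (4.921% and 5.161%) and Dppa2KO (5.905% and 5.461%) all lay below both of those groups. In the Pramel7 table the 4 WT libraries spread from 4.979% to 7.408%, with replicates 3 and 4 at 7.408% and 6.451% and replicates 5 and 6 at 5.462% and 4.979%. Both DuxKO libraries, at 9.216% and 8.27%, lay above all 4. P7OE gave 7.028% and 7.802%, the second above the WT range. DuxKO_P7OE (6.866% and 6.638%) and P7KO (5.147% and 6.549%) lay inside it. Time course libraries ran from 3.891% to 5.1%. H2A genes made up 32.98% to 36.26% of histone counts in the genotype table, H2B 20.7% to 23.59%, H3 16.94% to 18.83%, H4 15.67% to 17.46% and H1 8.51% to 10.99%.

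**Figure D1:**
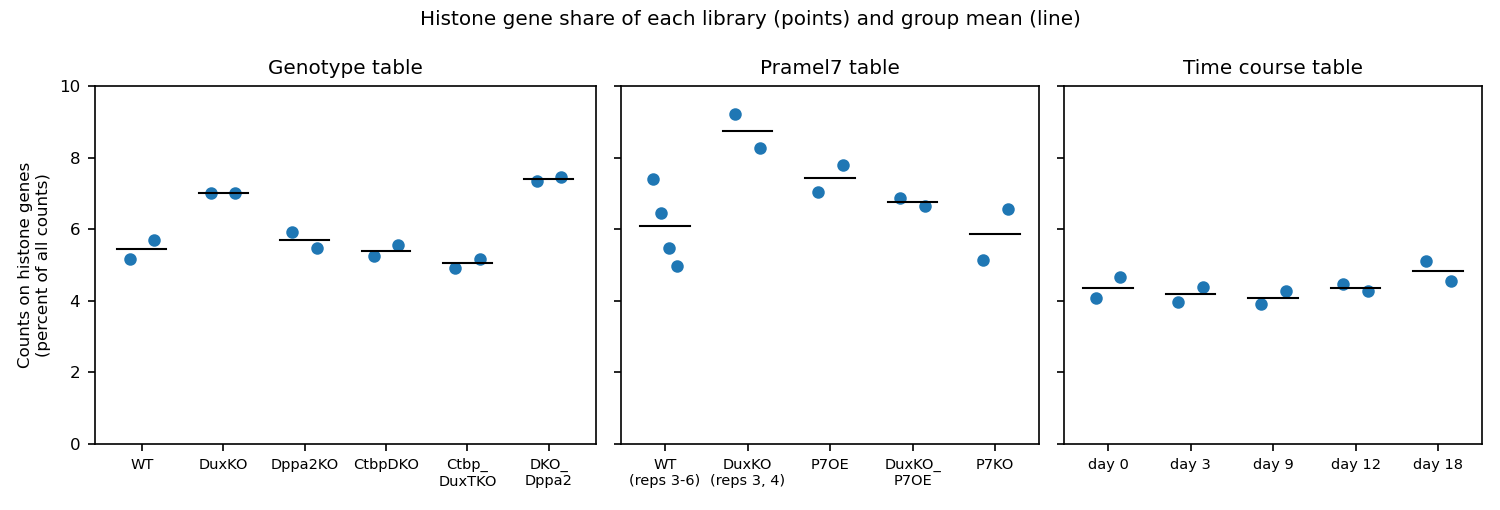
Percent of all counts that fell on histone genes (y axis) in each library (points) with the group mean (line), in the 3 tables. DuxKO libraries lie above all WT libraries in both tables, and DKO_Dppa2 at 7.332% and 7.444% is the highest pair of the genotype table.

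Levels in WT spanned a wide range. Per kilobase of RefSeq length, over the 58 members shorter than 1000 bases, the median was 1380 CPM and the highest values were 7670 for H2ac14 and 7400 for H2ac12. The median level was 1640 CPM per kilobase for H2A and for H4, 1360 for H1, 1260 for H3 and 1170 for H2B. H1f6 (H1t, the testis linker histone) at 14.5 and H2ac1 (the testis and oocyte variant TH2A) at 16.1 CPM per kilobase were the lowest of these, while H2bc1 (the matching variant TH2B) stood at 432.

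DuxKO cells had more RNA from most histone genes than WT cells in the same table. Of 68 members, 42 rose and 0 fell, where 7.94% of all tested genes were called higher and 9.56% lower. Called means an adjusted p under 0.05, from the quasi-likelihood test of edgeR, adjusted by Benjamini-Hochberg over all genes tested. The median log2 fold change was 0.41 over the members, and 66 of 68 lay above 0. The exceptions were H1f6 (-0.28) and H2bc21 (-1.75, at under 1 CPM in both groups), neither called. Calls came from every class: 5 of 8 H1, 7 of 19 H2A, 14 of 17 H2B, 8 of 12 H3 and 8 of 12 H4 genes, and all 42 remained without H1f0 and H1f10.

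The H1 gene H1f4, which encodes the linker histone H1.4, had the smallest adjusted p of the members. It was at 439 and 452 CPM in the WT libraries and at 775 and 817 in DuxKO, a log2 fold change of 0.84 (SE 0.09, adjusted p = 3.87e-05). H3c1, a core H3 gene, stood at 641 ± 4.83 CPM (SD, n = 2) in DuxKO against 463 ± 23 in WT, a log2 fold change of 0.47 (edgeR adjusted p = 0.00226). The H2B gene Hist1h2bq stood at 1040 ± 22.7 CPM (SD, n = 2) against 714 ± 31.5, a log2 fold change of 0.54 (edgeR adjusted p = 0.00241). The libraries of these 3 genes did not overlap between the groups, but such genes were preferred in picking them. Non-overlap was common here, with all 42 called members and 23 of those not called. Its share over all tested genes was not computed, so these counts have no background to be read against.

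The member with the highest mean count in each class was higher in DuxKO, but not all 5 passed the test. H2ac12 was at 3910 and 3820 CPM in WT and at 5000 and 4870 in DuxKO, a log2 fold change of 0.35 that was not called. H1f1, a linker histone gene, was at 1370 and 1300 CPM in WT and 2170 and 2070 in DuxKO, and rose by a log2 fold change of 0.67. Hist1h2br (H2B) was at 1400 and 1520 CPM in WT and 2030 and 1940 in DuxKO, and H3c10 (H3) at 1240 and 1250 against 1720 and 1580; both rose. H4c8 (H4) was at 1360 and 1260 CPM in WT and 1730 and 1700 in DuxKO, and rose by 0.39 on the log2 scale. In all 5, both DuxKO libraries lay above both WT libraries.

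Among 16 genes for histone mRNA synthesis and processing, 4 rose and 1 fell in DuxKO. Eri1 was at 60.1 and 54.4 CPM against 40.2 and 40.8 in WT (log2 fold change 0.50), and Slbp at 62.7 and 62.9 against 51.9 and 49.1 (0.31). Ncbp1, of the cap-binding complex, and Cpsf3, the nuclease that cuts the histone mRNA end, also rose (0.41 and 0.37). Zfp473, which works in that cleavage step, fell by 0.70 on the log2 scale. Of 26 DNA replication genes 7 rose and 1 fell, with Mcm5, of the replicative helicase, at 445 and 458 CPM in WT and 581 and 621 in DuxKO (0.41), and Ccne2, a cyclin of S-phase entry, at 10.5 and 7.92 against 12.5 and 15.4 (0.60). None of 15 mitosis genes and none of 8 structural RNA genes was called. The summed level of the replication list ran from 4560 to 4620 CPM in DuxKO and from 4040 to 4110 in WT. Primitive endoderm markers fell in the same comparison, 5 of 6, with a summed level of 3.7 to 3.82 CPM against 13.7 in both WT libraries and none at 0. Of 4 tested trophoblast markers 3 rose, with a summed level of 11.7 to 12.7 CPM against 6.23 to 6.64 and Elf5 at 0 in both groups, and 4 of 8 embryonic stem cell markers fell, with a summed 2170 to 2210 CPM against 2860. The part of these in the histone values was not tested.

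The Pramel7 table holds separate DuxKO and WT libraries, and there 22 of 67 members rose and 0 fell in DuxKO, against 7.76% of all tested genes called higher and 8.91% lower. The median log2 fold change was 0.59. H2B genes supplied 14 of the calls, out of 16 tested, while 2 of 12 H3 and 0 of 12 H4 genes were called. Without H1f0 and H1f10 the count was 20 of 65. Over the 67 members in both tables, 17 rose in both, which is 40.5% of the 42 called in the genotype table and 77.3% of the 22 called here. Since 42 of these 67 were called in the genotype table, unrelated lists would also share many members. The overlap was not tested. The median of the H4 genes was 0.44, and 1 of the 12 had an unadjusted p under 0.05.

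H2bc9, an H2B gene, stood at 400 ± 44 CPM (SD, n = 2) in DuxKO against 196 ± 31 (SD, n = 4) in WT, a log2 fold change of 1.03 (SE 0.18, edgeR adjusted p = 0.00212). H3c1 rose again, at 749 ± 69.5 CPM (SD, n = 2) against 435 ± 41.6, a log2 fold change of 0.78 (edgeR adjusted p = 0.0031). H1f4 was at 1300 and 968 CPM in DuxKO and at 648, 581, 227 and 305 in WT replicates 3 to 6, and rose by 1.36. H1f10 rose by 1.24 (24.2 and 25 CPM against 9.58 to 11.5), where its change in the genotype table was 0.25 and was not called.

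The number of calls depended on which WT libraries were used. Against WT replicates 5 and 6 only, 58 of the 67 members were called, and against replicates 3 and 4 only, 17 were. Without WT replicate 3 the number was 41. It was 13 without WT replicate 5. Without DuxKO replicate 3 it fell to 3, without DuxKO replicate 4 to 6, and in a fit of these groups alone it was 9. In the genotype table, the count of 42 became 18 without WT replicate 1, 19 without DuxKO replicate 1, 24 without DuxKO replicate 2 and 28 without WT replicate 2, all in the same direction.

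**Figure D2:**
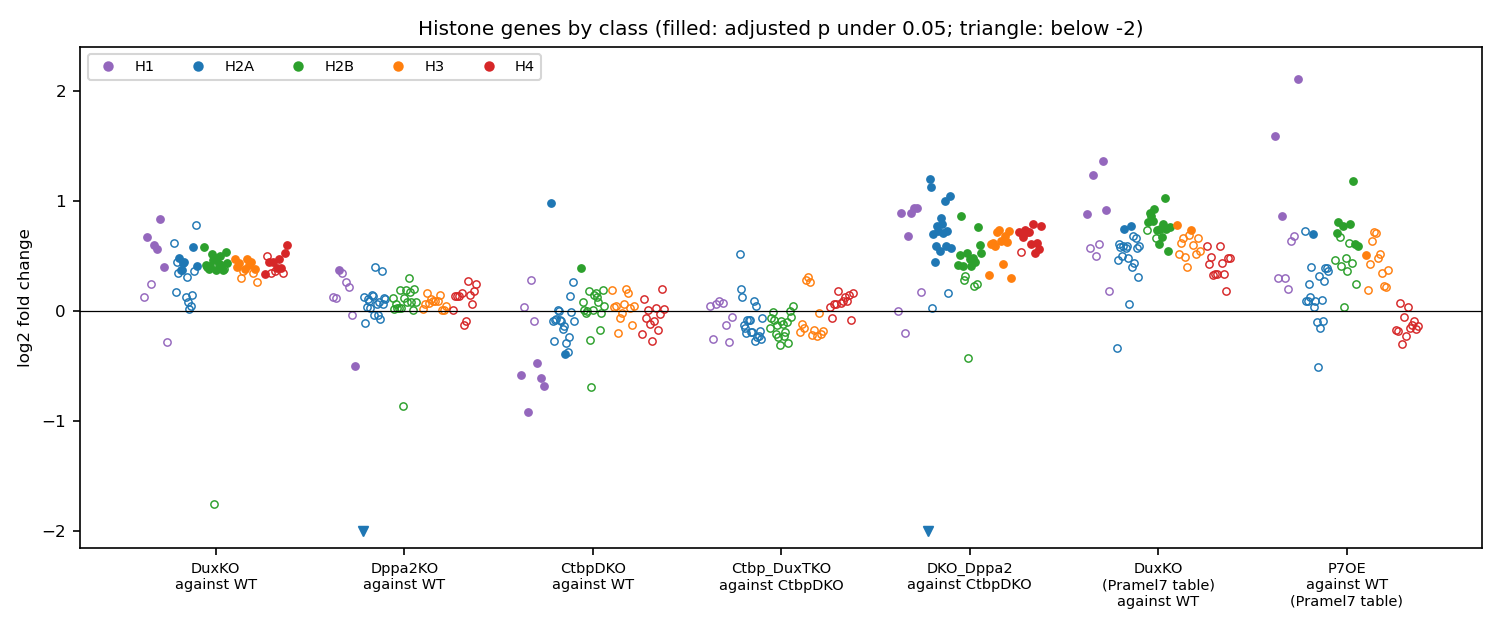
Log2 fold change (y axis) of each histone gene in 7 comparisons (x axis), coloured by class; filled symbols passed the test and triangles mark H2ac1 values below -2. DuxKO and DKO_Dppa2 shift most members of all classes above 0, while Dppa2KO and Ctbp_DuxTKO leave most near 0.

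Few core histone genes were called with loss of Ctbp alone. In CtbpDKO against WT, 2 of 68 members rose and 6 fell (14.7% of all tested genes were called higher and 11.4% lower), and their median change was -0.02 on the log2 scale. Without H1f0 and H1f10, 2 rose and 4 fell. H1 genes made up 5 of the 6 that fell. H1f4 was at 331 and 314 CPM in CtbpDKO against 439 and 452 in WT, and fell by 0.47 (SE 0.09, edgeR adjusted p = 0.00167). H1f5, another somatic linker histone gene, stood at 721 ± 98.7 CPM (SD, n = 2) against 1100 ± 41.5 and fell by 0.61 (edgeR adjusted p = 0.000798). H1f10 fell by 0.92, from 21.2 and 20.5 CPM to 11.9 and 10.2. Among H3 and H4 genes 0 were called by edgeR, with 2 and 1 at an unadjusted p under 0.05, and H1f1, the most abundant H1 gene, was at 1470 and 1280 CPM against 1370 and 1300. With low-count genes kept, 15 members were called, and 14 in a fit of the 2 groups alone, 11 and 12 of them lower. It was 5 without WT replicate 1, WT replicate 2 or CtbpDKO replicate 1.

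In cells without Ctbp, removing Dux made no member pass the test. Ctbp_DuxTKO against CtbpDKO gave 0 of 68 calls in either direction (3.6% of all tested genes were called higher and 4.54% lower), with a median of -0.08; 10 members had an unadjusted p under 0.05, and edgeR with no low-count filter called 6. The change with Ctbp loss differed between cells with and without Dux for 35 members by an interaction term, and all 35 were more negative in cells without Dux (9.64% of all tested genes were called lower in this term and 9.82% higher). The median of the term was -0.48. H2B genes gave 14 of the 35 calls and H4 genes 1. For H1f4 the term was -0.96 (SE 0.13, edgeR adjusted p = 0.000216), with 308 and 282 CPM in Ctbp_DuxTKO against 775 and 817 in DuxKO, beside 331 and 314 in CtbpDKO against 439 and 452 in WT. The term was -0.66 for H3c1 (edgeR adjusted p = 0.0024) and -0.70 for the H2B gene H2bc18 (edgeR adjusted p = 0.00369). The count was 19 without WT replicate 1, 20 without DuxKO replicate 1 and 22 without CtbpDKO replicate 1.

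Read directly, Ctbp_DuxTKO had less histone RNA than DuxKO: 57 of 68 members fell and 1 rose (19.6% of all tested genes were called lower and 21.4% higher), with a median of -0.47. This comparison shares the DuxKO libraries with DuxKO against WT, where the same members had a median of 0.41. H1f4 fell by 1.43 (SE 0.09, edgeR adjusted p = 6.69e-08). H1f5 fell by 1.30, from 1430 and 1480 CPM to 637 and 548, and H2bc18 fell by 0.96, from 649 and 650 CPM to 331 and 337. H2ac1 was the member that rose. Without H1f0 and H1f10, 55 of 66 members fell and 1 rose. Replication genes moved the same way, with 13 of 26 lower and 2 higher, and 7 of 16 processing genes fell and 1 rose. The summed replication level was 3690 to 3870 CPM in Ctbp_DuxTKO. Primitive endoderm markers rose, 6 of 6, to a summed 57.8 to 64.1 CPM with none at 0; their part in the histone values was not tested.

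Dppa2 loss by itself moved few histone genes. In Dppa2KO against WT, 1 of 68 members rose and 2 fell (7.67% of all tested genes were called higher and 8.69% lower), with a median of 0.09. H1f10 rose by 0.37, from 21.2 and 20.5 CPM to 26.8 in both Dppa2KO libraries (edgeR adjusted p = 0.0358). H1f6 fell by 0.50, from 10.5 and 10.8 CPM to 8.01 and 7.09 (edgeR adjusted p = 0.0281). Neither call held when any 1 library was left out or when low-count genes were kept; that of H1f10 was also lost with upper quartile scaling (edgeR adjusted p = 0.0551), in a fit of the 2 groups alone (0.0583) and with the replicate block (0.0518), and that of H1f6 with DESeq2 (adjusted p = 0.0503). DESeq2 called 5 members, 4 of them higher, and edgeR with low-count genes kept called 7, 6 of them higher. The second member that fell was H2ac1, described below. Without H1f0 and H1f10, 0 of 66 members rose and 2 fell. Among H3 and H4 genes 0 of 24 were called by edgeR, with 0 and 1 at an unadjusted p under 0.05. Without WT replicate 1 or either Dppa2KO library 1 member was called.

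In cells without Ctbp the loss of Dppa2 went with higher levels of nearly all histone genes. In DKO_Dppa2 against CtbpDKO, 56 of 68 members rose and 1 fell, where 5.75% of all tested genes were called higher and 9.67% lower, and the median log2 fold change was 0.61. Called members were 5 of 8 H1, 16 of 19 H2A, 12 of 17 H2B, 12 of 12 H3 and 11 of 12 H4 genes, and 9 of the 10 members on chromosome 3. Leaving out H1f0 and H1f10 removed none of the calls. Of the 9 back-to-back H2A and H2B pairs, 4 had both genes called higher and 5 had 1.

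The H1 genes again gave the named examples. H1f4 was at 331 and 314 CPM in CtbpDKO and 583 and 650 in DKO_Dppa2, a log2 fold change of 0.94 (SE 0.09, edgeR adjusted p = 3.33e-05). H1f5 was at 791 and 651 CPM against 1330 and 1440 (0.94, edgeR adjusted p = 0.000115), and H1f3, another somatic linker histone gene, at 1030 and 930 against 1650 and 1980 (0.89, edgeR adjusted p = 0.000192). For all 3 the groups did not overlap, which was preferred in picking them and held for 55 of the members that rose. The share of all tested genes without overlap was not computed here either. H3c10 was at 1280 CPM in both CtbpDKO libraries and at 1780 and 2140 in DKO_Dppa2 (0.61), and H4c8 at 1250 and 1090 against 1500 and 1880 (0.53); both rose. Hist1h2br rose by 0.53, from 1460 and 1560 CPM to 2170 and 2190, and H1f1 by 0.89, from 1470 and 1280 to 2180 and 2930.

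The DKO_Dppa2 libraries differed from each other at some genes. H2ac12 was at 4870 CPM in replicate 1 and 2640 in replicate 2, against 3860 and 3480 in CtbpDKO, and was not called. Its back-to-back partner H2bc12 was at 1860 and 2820 CPM, and Hist1h2ao (H2A) at 730 and 1800. Without DKO_Dppa2 replicate 2 the comparison with CtbpDKO gave 39 calls, 38 of them higher, and without replicate 1 it gave 59.

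Against Dppa2KO, 54 of 68 members rose in DKO_Dppa2 and 2 fell (15.2% of all tested genes were called higher and 15.2% lower), with a median of 0.51. The 2 that fell were H1f10, from 26.8 CPM in both Dppa2KO libraries to 9.22 and 9.96 (log2 fold change -1.48, edgeR adjusted p = 7.61e-07), and H1f0, from 20.3 and 16.3 to 12 and 10.3 (-0.71, edgeR adjusted p = 0.00546). Both are the members expressed outside S phase. H2bc11 (H2B) rose by 0.57, from 1470 and 1340 CPM to 1980 and 2200, and H4c4 (H4) by 0.61, from 1030 and 1040 to 1440 and 1710. Without DKO_Dppa2 replicate 2 the count was 32. This comparison and the one with CtbpDKO share the DKO_Dppa2 libraries.

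The change with Ctbp loss differed between cells with and without Dppa2 for 30 members by the interaction term, 29 more positive and 1 more negative in cells without Dppa2 (3.23% of all tested genes were called higher in this term and 5.0% lower). The median of the term was 0.53, where the term with Dux had -0.48; both use the same WT and CtbpDKO libraries. H1f5 had a term of 0.98 (SE 0.15, edgeR adjusted p = 0.00212) and H1f4 of 0.71 (edgeR adjusted p = 0.00473). The 1 more negative was H1f10 at -0.57 (edgeR adjusted p = 0.0453). Its call was lost under every alternative run except without CtbpDKO replicate 2, with adjusted p from 0.0509 to 0.18 (0.0647 with DESeq2, 0.0672 with the replicate block). The count fell to 6 without WT replicate 2, 7 without DKO_Dppa2 replicate 2, 9 without Dppa2KO replicate 2, 11 without CtbpDKO replicate 2, 14 without WT replicate 1 and 18 without CtbpDKO replicate 1; it was 20 without Dppa2KO replicate 1.

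Against CtbpDKO, cell cycle genes that passed the test in DKO_Dppa2 were lower: 0 of 26 replication genes rose and 6 fell, among them Rrm2, of ribonucleotide reductase, by 0.58 and Mcm4, of the replicative helicase, by 0.53. Of 15 mitosis genes 5 fell and 0 rose, with Top2a, the mitotic topoisomerase, down by 0.73. Against Dppa2KO, 4 of 26 replication genes rose and 11 fell, and 1 of 15 mitosis genes rose and 10 fell. The summed replication level was 3670 to 3720 CPM in DKO_Dppa2 and 4210 to 4260 in CtbpDKO. Among processing genes 2 of 16 rose (Zfp473 by 0.60 and Coil, a nuclear body protein, by 0.49) and 1 fell (Cpsf3, by 0.41). Of 11 histone chaperones 3 fell, among them Nasp, which binds H3 and H4, by 0.48. Structural RNA moved with the histone genes in part: 2 of 8 rose, Rn7sk by 0.69 and Rpph1 by 0.94, and 0 were called lower. Of the 8, 6 lay above 0, and the lowest stood at -1.22 on the log2 scale, not called. The histone share was above that of CtbpDKO by 0.45 on the log2 scale, and by 0.56 with structural RNA left out of the total. The 7 markers of the 2-cell-like state were all at 0 in DKO_Dppa2, with a summed 31.4 to 38.1 CPM in CtbpDKO. Primitive endoderm markers fell, 4 of 6, to a summed 8.35 to 8.41 CPM from 22.8 to 23.1 with none at 0. Of 4 tested trophoblast markers 1 rose and 1 fell, with a summed 20.8 to 21.9 CPM against 19.1. The part of these lists in the histone values was not tested.

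H2ac1 departed from the other members. It was at 8.39 and 6.94 CPM in WT (250 and 213 counts) and at 0 and 0.142 in Dppa2KO (0 and 5 counts). The fitted log2 fold change was -6.69 (SE 0.41, edgeR adjusted p = 4.47e-07). Its size and its SE depend on the prior count, since 1 library was at 0. H2ac1 was at 13.5 and 16.7 CPM in CtbpDKO, higher than WT by 0.98 (edgeR adjusted p = 0.00364), and at 23.9 and 19.6 in Ctbp_DuxTKO. It stood at 11.7 and 11.8 CPM in DuxKO, 0.62 above WT and not called.

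In DKO_Dppa2 H2ac1 was at 1.25 and 1.53 CPM, lower than CtbpDKO by a log2 fold change of -3.43 (SE 0.26, edgeR adjusted p = 4.65e-06) and above Dppa2KO by 4.24 (edgeR adjusted p = 5.52e-05). The interaction term was 3.26 (edgeR adjusted p = 0.00617). H2bc1, which starts 281 bases away on the opposite strand, did not go down with it. H2bc1 was at 172 and 201 CPM in WT and 220 and 185 in Dppa2KO, a log2 fold change of 0.12 that was not called. It was at 257 and 231 CPM in CtbpDKO and 311 and 342 in DKO_Dppa2, and rose by 0.42 in that comparison. The 2 genes share the promoter stretch printed first, with its octamer and CCAAT letters.

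**Figure D3:**
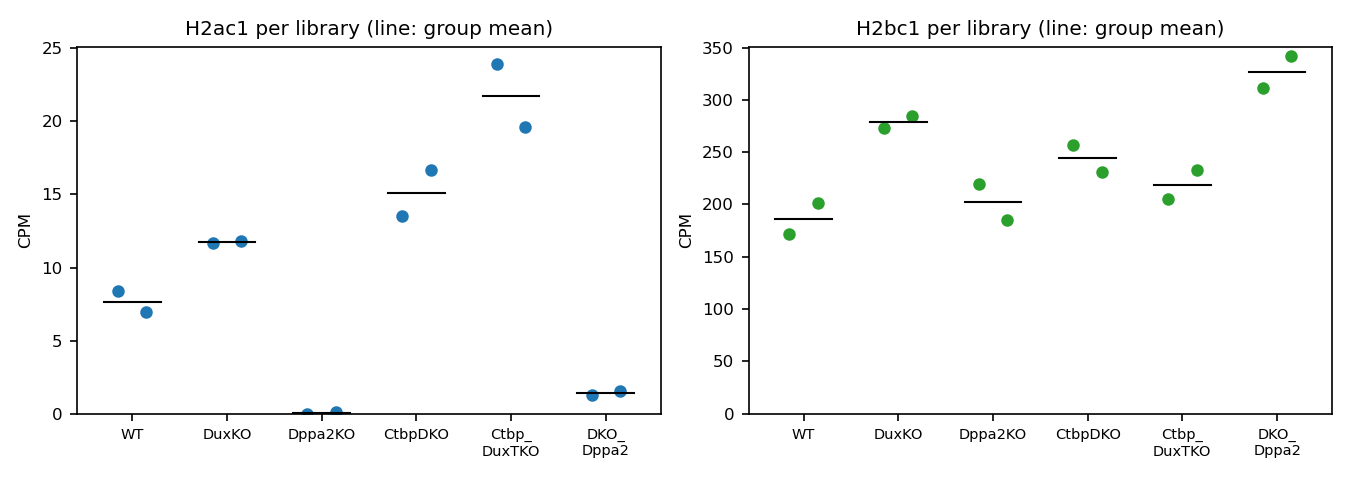
CPM of H2ac1 and H2bc1 (y axes) in each library (points) of the 6 genotype groups (x axis), with the group mean as a line. H2ac1 is near 0 in Dppa2KO and at 1.25 and 1.53 CPM in DKO_Dppa2, while H2bc1 is not lower in these groups than in WT.

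The linker histone genes did not move as 1 group. H1f1, H1f2, H1f3, H1f4 and H1f5, the somatic genes of the chromosome 13 cluster, all rose in DuxKO against WT (0.67, 0.60, 0.56, 0.84 and 0.40 on the log2 scale) and in DKO_Dppa2 against CtbpDKO (0.89, 0.68, 0.89, 0.94 and 0.94). H1f6, in the same cluster, was called in neither, at -0.28 and 0.17. H1f4 and H1f5 fell in CtbpDKO, while H1f2 stood at 0.28 and H1f1 at 0.04, neither called. H1f10 and H1f0 were lower in all 3 groups without Ctbp, at 9.22 to 12 and 9.41 to 13.6 CPM, than in the 3 groups with it, at 20.5 to 26.8 and 16.3 to 20.3 CPM.

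**Figure D4:**
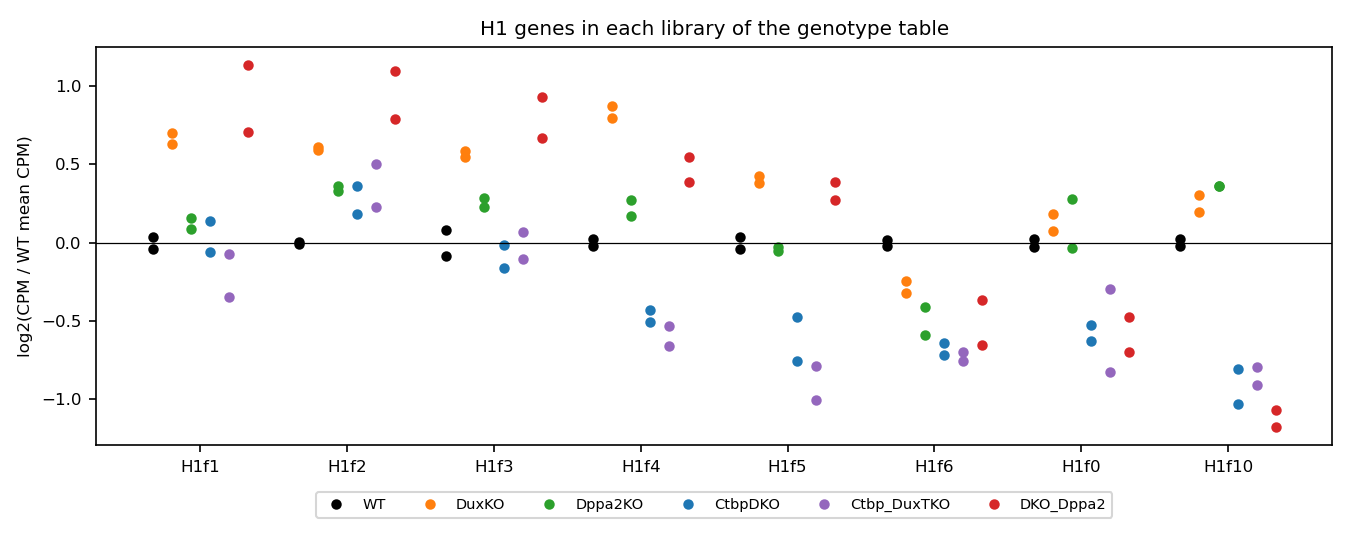
Log2 of CPM relative to the WT mean (y axis) for the 8 H1 genes in each library (points) of the genotype table (x axis). H1f4 and H1f5 lie below 0 in CtbpDKO and Ctbp_DuxTKO and above 0 in DuxKO and DKO_Dppa2, while H1f10 and H1f0 are low in every group without Ctbp.

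With Pramel7 overexpression, called members were mostly H2B and H1 genes. In P7OE against the 4 WT libraries, 12 of 67 members rose and 0 fell (11.0% of all tested genes were called higher and 8.9% lower), with a median of 0.35; without H1f0 and H1f10 it was 10 of 65. H2B genes gave 7 of the 12 calls and H4 genes 0 of 12, with 0 at an unadjusted p under 0.05 and a median of -0.15. H1f6 was at 35.2 and 49.3 CPM in P7OE against 14.8, 13.5, 5.31 and 5.37 in WT replicates 3 to 6, and rose by 2.11. H1f0 was at 38.4 and 37.9 CPM against 7.69 to 17.2 and rose by 1.59 (SE 0.24, edgeR adjusted p = 0.000666). H2bc9 was at 406 and 481 CPM against 157 to 232 and rose by 1.18 (edgeR adjusted p = 0.000778). H1f10 rose by 0.86 (edgeR adjusted p = 0.00114). The count was 8 without P7OE replicate 1 and 4 without P7OE replicate 2. Against WT replicates 3 and 4 only, 12 members were called higher and 4 lower, and against replicates 5 and 6 only, 34 were called, all higher. Primitive endoderm markers rose too, 6 of 6, with a summed 35.7 to 36.5 CPM in P7OE against 4.16 to 4.78 in WT and none at 0, and so did the 4 tested markers of the 2-cell-like state; their part in the histone values was not tested.

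In cells without Dux, DuxKO_P7OE against DuxKO had 1 member higher and 8 lower (11.6% of all tested genes were called higher and 9.83% lower), with a median of -0.52. H1f6 rose by 1.57, from 13.4 and 8.79 CPM to 31.6 and 33.9 (SE 0.44, edgeR adjusted p = 0.0227). The H2A genes H2ac21 and H2ac20 fell by 1.37 and 1.03, to 30.8 and 21.7 CPM from 76.6 and 58.9 and to 126 and 105 from 250 and 222. H2bc18 fell by 1.11 (edgeR adjusted p = 0.0204). In a fit of these 2 groups alone 41 members were called, 36 of them lower, and leaving out any 1 library left 0 to 2 calls. Primitive endoderm markers rose, 6 of 6, to a summed 35.7 to 36.1 CPM from 4.07 to 4.76 with none at 0, and 2 of 4 tested trophoblast markers fell, with a summed 6.88 to 11.9 CPM against 22.1 to 23.4; their part in the histone values was not tested. DuxKO_P7OE against P7OE had 0 of 67 calls by edgeR (0.0% of all tested genes were called higher and 0.0298% lower), with 3 at an unadjusted p under 0.05 and 1 by DESeq2. H1f6 stood at 32.8 ± 1.62 CPM (SD, n = 2) in DuxKO_P7OE and 42.3 ± 9.94 in P7OE. Whether overexpression acts differently with and without Dux was not tested.

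Pramel7 loss gave 0 of 67 calls by edgeR (3.93% of all tested genes were called higher and 5.55% lower), with 8 members at an unadjusted p under 0.05, 1 call by DESeq2 and a median of -0.14. This comparison turned on the WT libraries. Against WT replicates 3 and 4 only, 24 members were called, all lower; against replicates 5 and 6 only, 3 were called, all higher. The median of all members relative to the WT mean was 0.46 in WT replicate 3, 0.15 in replicate 4 and -0.30 in replicates 5 and 6, on the log2 scale. H1f4 shows the split, at 648 and 581 CPM in replicates 3 and 4 and 227 and 305 in replicates 5 and 6, while P7KO stood at 256 and 327. The labels give no batch for these libraries. Mitochondrial genes, structural RNA aside, took 1.05% and 1.15% of counts in WT replicates 5 and 6 and 1.01% and 1.07% in P7KO. They took 0.62% and 0.74% in WT replicates 3 and 4, and 0.59% to 0.85% in DuxKO, P7OE and DuxKO_P7OE. Comparisons with all WT libraries pool both pairs, and the part of this grouping in the histone values was not tested.

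**Figure D5:**
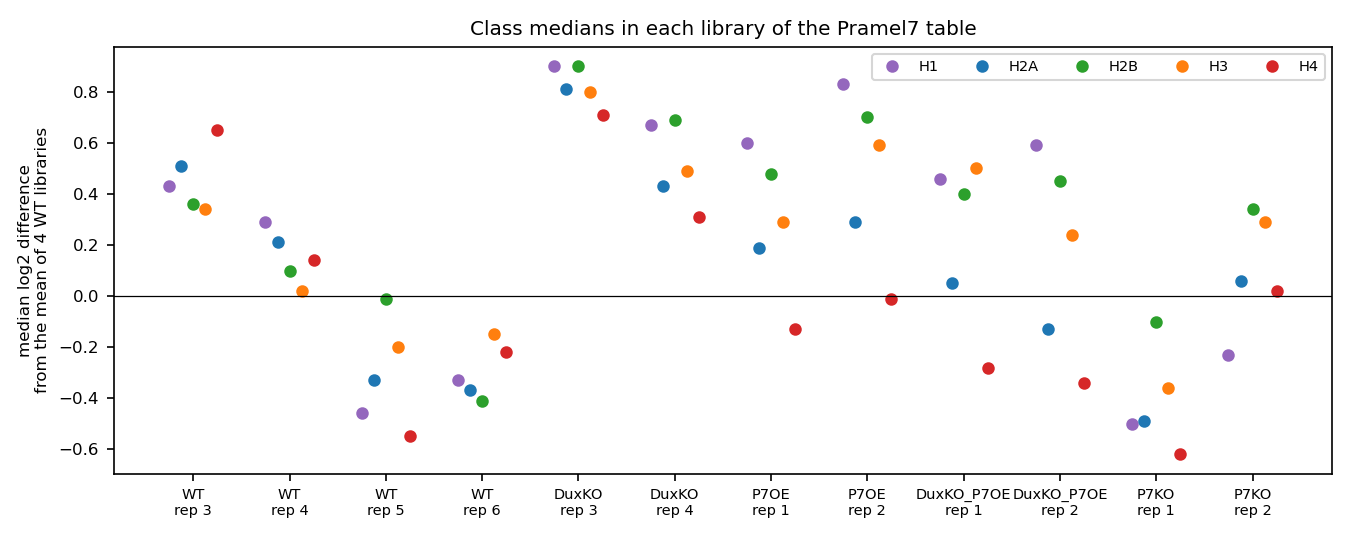
Median log2 ratio to the mean of the 4 WT libraries (y axis) over the members of each histone class in each library (points) of the Pramel7 table (x axis). WT replicates 3 and 4 lie above replicates 5 and 6, and in P7OE the H2B median (0.48 and 0.7) lies above the H4 median (-0.13 and -0.01).

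In the time course Ctbp2 went from 58.9 and 59.3 CPM at day 0 to 544 and 573 at day 3 and 310 and 296 at day 9, and was at 49.4 and 44.7 at day 12 and 52.4 and 54.7 at day 18. Few histone genes were called between these days. Day 3 against day 0 had 1 of 68 members higher and 0 lower (2.41% of all tested genes were called higher and 2.59% lower). That was H1f10, from 13 and 14.3 CPM to 21.4 and 21.1 (log2 fold change 0.64, edgeR adjusted p = 0.0114). Without H1f0 and H1f10, 0 of 66 members were called. Day 9 against day 3 had 0 calls by edgeR (0.524% and 0.592% of all tested genes were called higher and lower), 11 at an unadjusted p under 0.05, 1 by DESeq2 and a median of -0.18. Day 12 against day 9 had 1 member higher (1.87% and 1.97% of all tested genes were called higher and lower), H2ac1, from 4.24 and 5.02 CPM to 8.27 and 8.46 (0.86, edgeR adjusted p = 0.022). Day 18 against day 12 had 0 calls by edgeR (0.64% and 0.18% of all tested genes were called higher and lower), 18 at an unadjusted p under 0.05, 1 by DESeq2 and a median of 0.23. Day 18 against day 0 had 1 member higher (0.359% and 0.155% of all tested genes were called higher and lower), H1f6, from 5.43 and 7.01 CPM to 13.4 and 12.1 (1.03, edgeR adjusted p = 0.0294); none was called in a fit of the 2 days alone. Without d12 or d9 libraries, taken out in turn, the H2ac1 comparison had 0 calls; day 3 against day 0 had 0 without d0 replicate 1 or either d3 library, and day 18 against day 0 had 0 without either d0 library or d18 replicate 1 and 4 without d18 replicate 2.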

How the data were processed

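RNA-seq gene counts were analysed from 34 libraries in 3 tables, and 6 bisulfite libraries were not analysed here. The tables hold raw read counts per gene as deposited by the authors, who used Trim Galore, HISAT2 and featureCounts with mm10, per the submitters' processing notes; versions, strand setting and treatment of multi-mapping reads are not given in the sources used here. The libraries are of total RNA from a stranded kit, per the labels' protocols. A further deposited table repeats 8 of the genotype libraries, with 442208 of 442208 values equal, and was not used.

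Each table was fitted as a whole in edgeR 4.0.16 (R 4.3.3) with its low-count filter, TMM scaling, a prior count of 0.125 and the group as the only term. Genes were called at an adjusted p under 0.05, by the quasi-likelihood test with Benjamini-Hochberg adjustment over all genes tested. SE values are the absolute log2 fold change divided by the square root of that test's F statistic, and are approximate. The fit was tested on simulated data. CPM values use the TMM-scaled library sizes, and 0 columns were left unused. Alternatives were DESeq2 1.42.0, other scaling and filters, fits of the compared groups alone, a replicate block and leaving out each library. In the alternatives only members were counted, and the printed shares of all tested genes belong to the main fit.

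Members named were the highest by mean count in each class and, per comparison and direction, up to 3 called members with the smallest adjusted p, preferring those whose libraries did not overlap. Other members were named for their values after these were seen. Members and gene lists were chosen with earlier results of these data known. Libraries of one group differed by more than sampling noise in all 21 pairs compared.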

Additional observations from a re-analysis of the deposited data

Results flagged for a closer look

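The change with Ctbp loss differed in DuxKO cells for 35 members, by the interaction term of the edgeR fit, and all were more negative there. The values were -0.96 for H1f4, -0.66 for H3c1 and -0.70 for H2bc18. The change with Ctbp loss differed in Dppa2KO cells for 30 members. The values were 0.98 for H1f5, 0.71 for H1f4, 3.26 for H2ac1 and -0.57 for H1f10. Each is a test of the difference itself, and both terms use the same WT and CtbpDKO libraries. Of 19 checks for a library far from the others among the 4 WT libraries of the Pramel7 table, 0 passed Dixon's limit. That check looks for a single extreme library. It cannot show a split into pairs, such as that of replicates 3 and 4 from replicates 5 and 6.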

How the results depend on the processing

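Over the counts of called members, 150 of 226 alternative values lay within 1.5 times the count reported and 76 did not; of the members named by rule, 14 of 44 lost their call in at least 1 setting, 10 of them only when 1 library was left out. With genes of low count kept, the number of members called was 15 for CtbpDKO against WT, 6 for Ctbp_DuxTKO against CtbpDKO, 7 for Dppa2KO against WT, 46 for the interaction with Dppa2KO, 53 for DuxKO and 26 for P7OE in the Pramel7 table, 40 for DuxKO_P7OE against DuxKO, 1 for DuxKO_P7OE against P7OE, 11 for P7KO, 2 for day 9 against 3, 2 for day 12 against 9, 6 for day 18 against 12 and 4 for day 18 against 0. DESeq2 called 5 for Dppa2KO against WT, 14 for DuxKO_P7OE against DuxKO, 1 for DuxKO_P7OE against P7OE, 1 for P7KO, 1 for day 9 against 3, 2 for day 12 against 9, 1 for day 18 against 12 and 4 for day 18 against 0; it called 51 for DuxKO against WT in the genotype table, including all 42. Fits of the compared groups alone gave 14 for CtbpDKO against WT, 9 for DuxKO in the Pramel7 table, 41 for DuxKO_P7OE against DuxKO and 0 for day 18 against 0. With structural RNA left out before scaling, Dppa2KO against WT had 5. Against WT replicates 5 and 6 only, DuxKO had 58, P7OE 34 and P7KO 3. Against replicates 3 and 4 only, DuxKO had 17, P7OE 16 and P7KO 24. The direction of calls turned with the setting for P7KO, all 24 lower against all 3 higher, and for Dppa2KO against WT, with 1 higher and 2 lower as reported, 4 and 1 by DESeq2 and 6 and 1 with low counts kept. The share of all tested genes called was not kept for these alternative runs, so their counts have no background beside them. The causes were not tested.

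Leaving out 1 library at a time gave ranges of 5 to 8 for CtbpDKO against WT, 18 to 28 for DuxKO against WT, 0 to 2 for Ctbp_DuxTKO against CtbpDKO, 45 to 48 for Ctbp_DuxTKO against DuxKO, 1 to 3 for Dppa2KO against WT, 39 to 59 for DKO_Dppa2 against CtbpDKO, 32 to 60 against Dppa2KO, 19 to 31 for the interaction with DuxKO, 6 to 35 for that with Dppa2KO, 3 to 41 for DuxKO and 4 to 16 for P7OE in the Pramel7 table, 0 to 2 for DuxKO_P7OE against DuxKO, 0 to 2 for P7KO, 0 to 1 for day 3 against 0, 0 to 0 for day 12 against 9, 0 to 1 for day 18 against 12 and 0 to 4 for day 18 against 0. A lone library left in a group was assumed to vary like the others.

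Same-numbered libraries did not deviate together over the genes tested (58 pairs, correlations of -0.098 to 0.092). Where both groups have 2 libraries, the 2 numbers give the same value by construction, so the pairs are not independent. Whether same-numbered libraries shared a culture or batch cannot be told from these values. With the replicate block the count was 42 for DuxKO against WT in the Pramel7 table, 4 for DuxKO_P7OE against P7OE and 0 for day 18 against 0; the other 13 counts fitted stayed within 1.5 times. P7OE and P7KO against WT and DuxKO_P7OE against DuxKO share no replicate numbers, and the block could not be fitted there.

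The log2 ratio of histone shares, with structural RNA left out of the total, was -0.08 for CtbpDKO against WT, 0.30 for DuxKO against WT, -0.02 for Ctbp_DuxTKO against CtbpDKO, -0.39 for Ctbp_DuxTKO against DuxKO, 0.56 for DKO_Dppa2 against CtbpDKO, 0.49 against Dppa2KO, -0.32 and 0.56 for the interactions with DuxKO and Dppa2KO and -0.13 for day 9 against 3. Depth limits low members most: H2ac1 had 5 counts or fewer in each Dppa2KO library.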
